A study of Mus musculus with 2 samples.

Results

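The 10 genes described here encode the Toll-like receptors Tlr1, Tlr2, Tlr3, Tlr4, Tlr6, Tlr7 and Tlr9, the trafficking protein Unc93b1, the adaptor Myd88 and the receptor-like protein Cd180, and they were chosen by symbol among the 32285 genes of the count tables. Toll-like receptors recognise microbial lipids, proteins and nucleic acids. Those at the cell surface bind bacterial lipopeptides and lipopolysaccharide, and those in endosomes bind nucleic acids and need Unc93b1 to leave the endoplasmic reticulum. Most of them signal through Myd88 to NF-kappa B and interferon regulatory factors, and in spleen they act both in phagocytes and in B cells, where their ligands give a second signal beside the antigen receptor.

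Spleen cells from 2 groups of wild-type C57BL/6 recipients were measured by single-cell RNA sequencing with a 5′ kit, with 1 library per group. In the ALLO group, tail skin of donors with an HLA-A2.1 transgene (strain C57BL/6-Tg(HLAA2.1)1Enge/J) was grafted onto the back at weeks 0 and 5. In the SYN group, the skin came from wild-type C57BL/6 donors and the procedure was otherwise the same, so that both groups had been anaesthetised and grafted 2 times and differed in the donor. Spleens were taken 4 weeks after the second graft. The cells had been frozen, thawed and passed over a dead-cell removal column before capture. Ages and the number of animals behind a library were not given in the sources used here. With 1 library per group, donor type, animal and library cannot be told apart and no test of ALLO against SYN was possible.

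The ALLO library held 11185 barcodes with a median of 3113 unique molecular identifiers (UMIs, counted RNA molecules), and the SYN library held 17777 with a median of 2036. Barcodes with at least 1000 UMIs that passed the limits on genes and mitochondrial UMIs numbered 9791 in ALLO and 11197 in SYN, with medians of 3327 and 3148 UMIs. The libraries shared 264 barcode strings, 159 of them among kept barcodes. Cells were assigned by a few genes, here called a gate. The B cell gate (Cd79a plus Cd79b at least 2 UMIs, no Cd3d, Cd3e or Cd3g) held 6941 ALLO and 6802 SYN cells. It was split into 4655 and 4398 cells with Fcer2a (CD23, a follicular mark) only, 227 and 215 with Myof or S1pr3 (marginal zone marks) only, 43 and 42 with Cd93 (an immature mark) only, and the remaining cells with none or several of the marks. The T cell gate (at least 1 UMI of Cd3d, Cd3e or Cd3g, no Cd79a) held 1757 ALLO and 2404 SYN cells. The NK cell gate (Ncr1 or Klrb1c, no Cd3e) held 240 and 368, and the myeloid gate (Csf1r plus Lyz2 at least 2 UMIs, no Cd79a) held 31 and 104.

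Levels are given in CPM: the UMIs of a gene over all cells of a gate, divided by all UMIs of that gate and scaled to 1000000. Levels of a gate and their ratios carry exact 95% intervals that cover counting error only and not the spread between animals. A gene was called apart when its levels differed at least 1.5-fold with at least 20 UMIs over both sides. Because CPM is not divided by gene length, levels are compared between cells and not between genes.

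Genes that the gates did not use were counted to check them. The B cell marker Ms4a1 had 1003 CPM in ALLO and 1027 CPM in SYN B cells, against 9.54 and 13.3 CPM in T cells. The 6 T cell markers summed to 2563 and 2675 CPM in T cells, and the 6 NK cell markers to 11068 and 12107 CPM in NK cells. The NK gate also held Ms4a1, at 226 CPM in ALLO and 291 CPM in SYN. The myeloid gate was mixed. The neutrophil genes S100a8, S100a9, Csf3r, Retnlg, Mmp8 and Cxcr2 summed to 191299 CPM in ALLO (31305 UMIs) and 78619 CPM in SYN (33519 UMIs). The 10 monocyte and macrophage markers summed to 2023 and 1438 CPM. Cells with at least 10 UMIs of S100a8 and S100a9 together, 12 of 31 in ALLO and 55 of 104 in SYN, held 31301 and 33489 of the neutrophil UMIs. In the other 19 ALLO and 49 SYN cells, the neutrophil genes summed to 59.2 and 115 CPM. The monocyte and macrophage markers summed to 2322 and 1503 CPM there. This gate is called the Csf1r and Lyz2 gate from here on. Neutrophil genes also reached the other cells, at 4.35 CPM in ALLO against 478 CPM in SYN B cells, and at 1341 CPM in ALLO against 573 CPM in SYN T cells.

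The members lie apart in the genome, except Tlr1 and Tlr6, which are neighbours on the minus strand of chromosome 5 (mm10). Tlr1 lies at chr5:64924679-64933563 and Tlr6 at chr5:64952031-64960097. They share 289 windows of 90 bases, 8.78% of the windows of Tlr1 and 7.89% of those of Tlr6, so reads could be split between them and their values are uncertain. Tlr2 lies at chr3:83836272-83841767 on the minus strand and Tlr4 at chr4:66827584-66930284 on the plus strand. Among the nucleic acid receptors, Tlr3 lies at chr8:45395665-45411080 (minus), the X-linked Tlr7 at chrX:167304929-167330558 (minus) and Tlr9 at chr9:106222598-106226883 (plus). Unc93b1 lies at chr19:3935186-3949340 (plus), Myd88 at chr9:119335934-119341411 (minus) and Cd180 at chr13:102693558-102739629 (plus). Exons of Tlr3, Myd88 and Cd180 overlap exons of Gm45542, Acaa1a and Mast4 on the opposite strand.

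The 250 bases before the RefSeq start (GRCm38.p6) are shown for 4 of the matched members, as examples of patterns over the cells: Tlr3 and Cd180, higher in marginal zone gate cells, Tlr9, near 0 in T cells, and Myd88, higher in T than in B cells. Of the 10 members, 7 matched the RefSeq promoter table and Tlr4, Tlr7 and Unc93b1 did not. The Tlr3 and Myd88 windows lie inside the gene spans given above, and the Tlr9 and Cd180 windows lie before them. Capitals mark letters that match a searched motif on either strand.
Tlr3 (chr8:45410381-45410630, minus strand): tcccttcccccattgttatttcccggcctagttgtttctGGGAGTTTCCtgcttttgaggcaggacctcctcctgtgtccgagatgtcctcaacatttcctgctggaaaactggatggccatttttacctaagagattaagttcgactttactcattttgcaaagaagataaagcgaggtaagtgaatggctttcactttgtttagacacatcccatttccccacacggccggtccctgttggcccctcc
Cd180 (chr13:102693308-102693557, plus strand): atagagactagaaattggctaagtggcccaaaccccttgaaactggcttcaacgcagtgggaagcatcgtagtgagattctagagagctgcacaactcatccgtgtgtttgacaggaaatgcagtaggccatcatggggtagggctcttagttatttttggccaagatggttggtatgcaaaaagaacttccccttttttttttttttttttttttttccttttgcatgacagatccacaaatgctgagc
Tlr9 (chr9:106222348-106222597, plus strand): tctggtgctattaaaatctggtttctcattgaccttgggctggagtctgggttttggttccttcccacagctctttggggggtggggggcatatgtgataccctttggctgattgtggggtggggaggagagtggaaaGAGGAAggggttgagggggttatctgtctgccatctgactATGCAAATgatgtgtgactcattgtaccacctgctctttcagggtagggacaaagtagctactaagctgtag
Myd88 (chr9:119340019-119340268, minus strand): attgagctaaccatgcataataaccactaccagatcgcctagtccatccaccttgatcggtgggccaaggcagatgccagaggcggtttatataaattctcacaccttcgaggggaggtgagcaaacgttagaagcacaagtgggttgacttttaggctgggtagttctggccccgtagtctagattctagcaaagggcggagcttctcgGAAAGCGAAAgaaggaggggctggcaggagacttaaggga
The Tlr3 window held the kappa B letters (GGGA, any base, then TTTCC), as GGGAGTTTCC beginning 211 bases before the start, which 0.356% of 32851 mouse promoter windows hold. The Tlr9 window held the ETS core GAGGAA, found in 23.3% of windows, and 72 bases before the start the octamer ATGCAAAT, found in 1.60%. The Myd88 window held the interferon-response letters (GAAA, any 2 bases, then GAAA), as GAAAGCGAAA 40 bases before the start, which 2.98% of windows hold. The Cd180 window held none of these 4 motifs. Among the matched members not printed, a Tlr6 window held the interferon-response letters on the other strand, 116 and 110 bases before the start. A Tlr1 window held GAGGAA. None of these motifs overlapped another in the printed windows, and a match describes letters and not a site in use.

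B cells had the highest CPM of Tlr1, Tlr9, Unc93b1 and Cd180 among the B, T, NK and Csf1r and Lyz2 gates in both libraries. The Csf1r and Lyz2 gate had the highest Tlr2 and Tlr7 in both libraries. For Tlr3, Tlr4, Tlr6 and Myd88 the highest gate differed between ALLO and SYN.

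**Figure D1:**
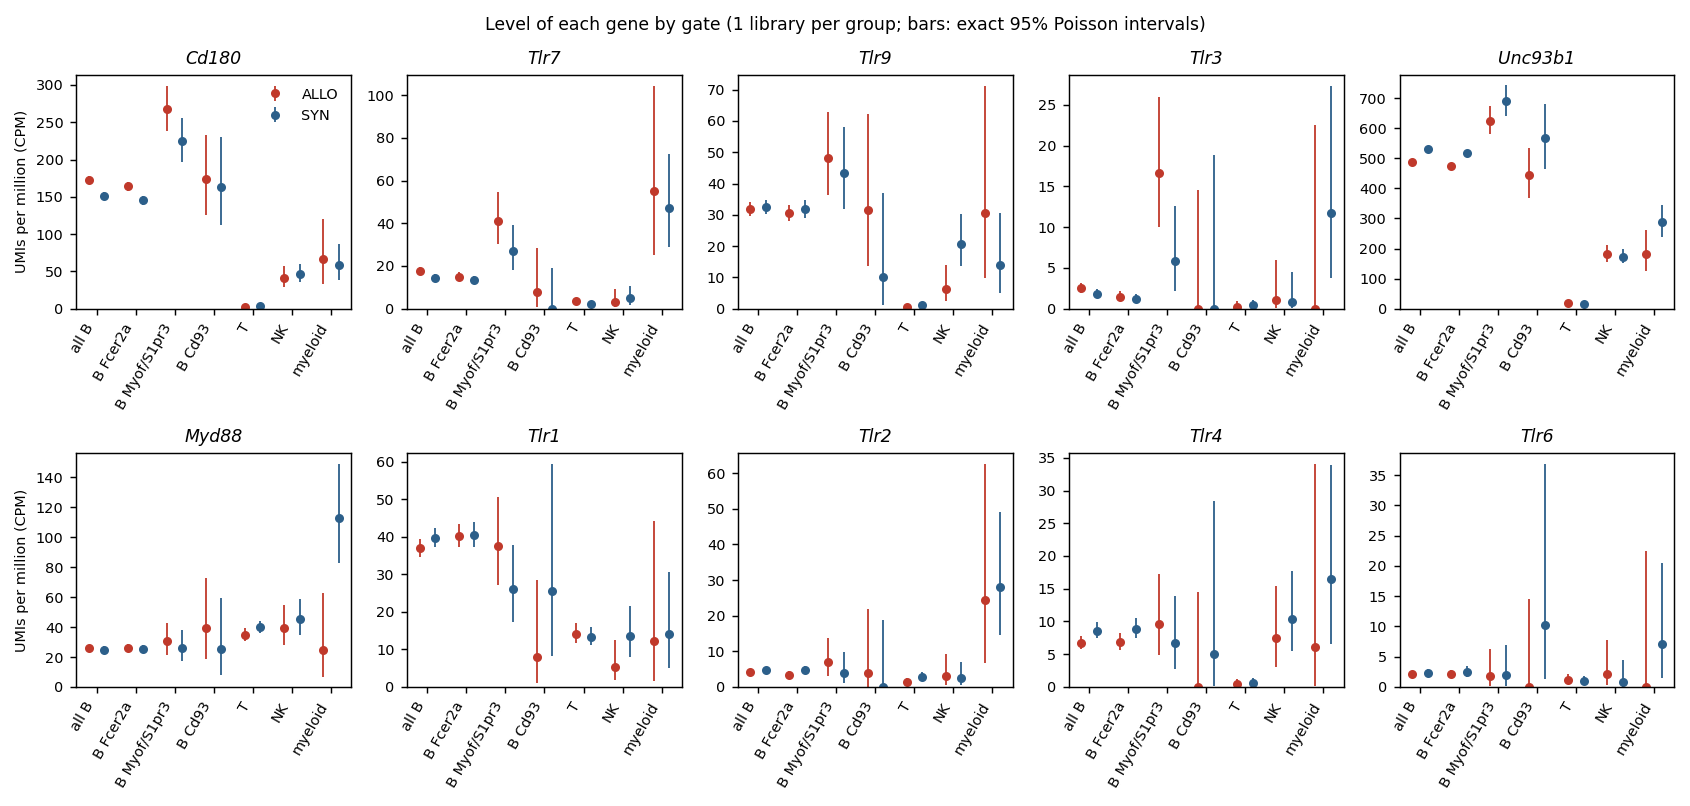
CPM (y axis) of the 10 genes, 1 panel each, in 7 gates (x axis, where myeloid is the Csf1r and Lyz2 gate), with ALLO points left of SYN points and bars for exact 95% Poisson intervals of 1 library each. Cd180 and Unc93b1 stood high in all B gates and near 0 in T cells in both libraries, with 172 and 152 CPM of Cd180 in all B cells against 2.88 and 2.98 CPM in T cells.

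Among the nucleic acid receptors, Tlr9, which binds unmethylated CpG DNA, had 31.8 CPM in ALLO B cells and 32.5 CPM in SYN B cells. The ALLO over SYN ratio was 0.981 (95% interval 0.887 to 1.09). That interval included 1, and no difference was detectable at this depth.

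Tlr7, the receptor for single-stranded RNA, had 17.8 CPM in ALLO B cells (458 UMIs, 95% interval 16.2 to 19.5) and 14.4 CPM in SYN B cells (333 UMIs, 12.9 to 16.0). The ratio was 1.24 (1.07 to 1.43), below the 1.5-fold limit. In Fcer2a cells, which make up most of the gate, it was 15.0 CPM in ALLO and 13.5 CPM in SYN, with a ratio of 1.11 (0.923 to 1.35). In B cells with none of the marks it was 18.7 CPM in ALLO and 13.6 CPM in SYN, with a ratio of 1.38 (1.01 to 1.88). The ALLO level was thus the higher one in each of these cells, with an interval that reached below 1 in Fcer2a cells. Tlr7 is X-linked. Xist, made only from an inactive X chromosome, had 1 UMI in ALLO B cells and 0 in SYN B cells, and the Y-linked Ddx3y had 49.1 and 36.5 CPM.

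Tlr3, which binds double-stranded RNA and signals through Ticam1 in place of Myd88, was sparse, with 64 UMIs (2.49 CPM) in ALLO B cells and 41 UMIs (1.77 CPM) in SYN B cells. The ratio of 1.40 had an interval of 0.934 to 2.13. No difference was detectable at this depth.

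Unc93b1, which carries Tlr3, Tlr7 and Tlr9 to endosomes, had 487 CPM in ALLO B cells (12538 UMIs) and 530 CPM in SYN B cells (12272 UMIs). Its ratio was 0.919 (0.896 to 0.942). Counting error is small at this depth, and the ratio lay below 1 while the median log2 ratio of all 12442 genes measured in B cells was -0.07.

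Cd180, which pairs with Ly86 on B cells and modulates responses to lipopolysaccharide, had 172 CPM in ALLO B cells (4432 UMIs, 167 to 178) and 152 CPM in SYN B cells (3508 UMIs, 147 to 157). Its ratio was 1.14 (1.09 to 1.19), and in Fcer2a cells it was 164 CPM in ALLO and 145 CPM in SYN with a ratio of 1.13 (1.07 to 1.20). Ly86 itself had 480 CPM in ALLO B cells and 502 CPM in SYN B cells, a ratio of 0.956. Cd180 thus lay above 1, while Ly86 lay slightly below it, close to the median log2 ratio of -0.07 of all genes in B cells.

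Of the surface receptors 0 of 4 were apart in all B cells. Tlr4, the lipopolysaccharide receptor, had 6.77 CPM in ALLO B cells and 8.60 CPM in SYN B cells, a ratio of 0.787 (0.638 to 0.969). Tlr1, the partner of Tlr2 for triacylated lipopeptides, had 37.0 and 39.8 CPM, a ratio of 0.929 (0.848 to 1.02). Tlr2 had 4.20 and 4.71 CPM, and Tlr6, its partner for diacylated lipopeptides, 2.06 and 2.33 CPM, with intervals of 0.677 to 1.17 and 0.593 to 1.31. Of these 4, Tlr4 alone had an interval of the ratio that did not reach 1. Tlr1 in B cells with none of the marks was 28.0 CPM in ALLO and 39.5 CPM in SYN, a ratio of 0.708 (0.573 to 0.874), whereas in Fcer2a cells it was 40.4 and 40.6 CPM. The adaptor Myd88 had 26.0 CPM in ALLO B cells and 25.0 CPM in SYN B cells, a ratio of 1.04 (0.930 to 1.17).

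In all B cells 0 of the 10 genes were apart between ALLO and SYN, where 7.88% of 12442 genes were. In Fcer2a cells 0 of 10 were apart, where 7.11% of genes were. The median log2 ratio of the members in all B cells was -0.07, the same as that of all genes to 2 decimals. Neutrophil transcripts stood beside these B cell values at 4.35 CPM in ALLO (112 UMIs) and 478 CPM in SYN (11056 UMIs). In the 6846 ALLO and 6705 SYN B cells with no S100a8 or S100a9 UMI, they summed to 0.473 CPM (12 UMIs) and 0.790 CPM (18 UMIs). The part of these transcripts in the ratios was not tested.

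**Figure D2:**
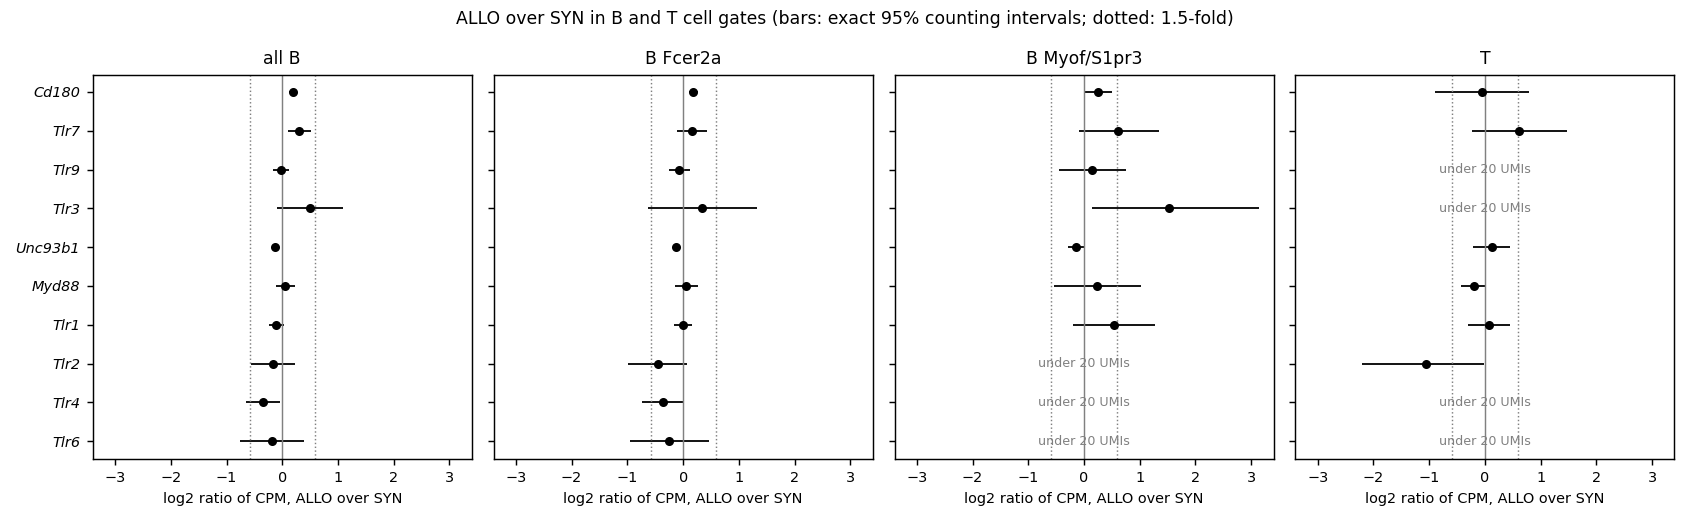
Log2 ratio of CPM in ALLO over SYN (x axis) for each gene with at least 20 UMIs, in panels for all B, Fcer2a, marginal zone gate (Myof or S1pr3) and T cells, with exact 95% counting intervals and dotted lines at 1.5-fold either way. In all B cells the ratios lay between 0.787 for Tlr4 and 1.40 for Tlr3, inside the dotted lines.

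Cells of the marginal zone gate, a B cell subset at the border of the splenic follicles known for rapid responses to Toll-like receptor ligands, had more Tlr3, Tlr7 and Cd180 than Fcer2a cells of their own library. Tlr3 had 16.7 CPM in ALLO marginal zone gate cells (19 UMIs) against 1.42 CPM in ALLO Fcer2a cells, and 5.80 CPM (6 UMIs) against 1.13 CPM in SYN. The ratios were 11.8 (6.08 to 22.4) in ALLO and 5.14 (1.66 to 13.7) in SYN. Marginal zone gate cells were 3.27% of ALLO and 3.16% of SYN B cells, and they held 29.7% and 14.6% of the Tlr3 UMIs of all B cells. These UMIs came from 16 ALLO and 6 SYN cells, with at most 3 and 1 in a cell.

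Tlr7 had 41.2 CPM in ALLO marginal zone gate cells against 15.0 CPM in ALLO Fcer2a cells, and 27.0 CPM against 13.5 CPM in SYN. The ratios were 2.75 (1.97 to 3.76) in ALLO and 2.01 (1.30 to 2.99) in SYN. Cd180 had 267 CPM in ALLO marginal zone gate cells against 164 CPM in ALLO Fcer2a cells, and 225 CPM against 145 CPM in SYN, with ratios of 1.63 (1.44 to 1.83) and 1.55 (1.35 to 1.78). Higher levels of these 3 genes were thus seen in each library separately.

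Tlr9 was 1.58 times (1.18 to 2.09) as high in marginal zone gate as in Fcer2a cells in ALLO and 1.36 times (0.981 to 1.85) in SYN. Unc93b1 was 1.32 (1.22 to 1.42) and 1.34 (1.24 to 1.44) times as high. Both had ratios above 1 in each library, and neither reached 1.5-fold in both. Tlr1 went the other way, with ratios of 0.934 in ALLO and 0.643 (0.420 to 0.944) in SYN, and Myd88 had ratios of 1.17 and 1.03. Tlr2, Tlr4 and Tlr6 had at most 11 UMIs in the marginal zone gate of either library.

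So 3 of the 10 genes were at least 1.5-fold higher in marginal zone gate cells in both libraries and 0 were lower, where 5.71% of 10732 genes were higher and 6.22% lower. In these counts a gene without a UMI was set at 3 UMIs. Markers that the gate did not use stood beside them. Cr2 (CD21) was 2.88 times as high in ALLO and 2.74 times in SYN, Cd1d1 was 4.01 and 3.81 times as high, and Cd9 was 8.73 and 9.54 times as high, while the follicular Ighd was at 0.369 and 0.330. The marginal zone gate was also deeper than the rest, with median UMIs of 4864 in ALLO and 4226 in SYN, against 3182 and 3069 in Fcer2a cells. With every cell thinned to 1000 UMIs, Cd180 was found in 21.6% of ALLO and 23.3% of SYN marginal zone gate cells, against 14.1% and 13.1% of Fcer2a cells. Thinned Tlr7 was found in 2.20% (5 cells) and 1.86% (4 cells) of marginal zone gate cells, against 1.33% and 1.11% of Fcer2a cells. Thinned Tlr3 was found in 4 ALLO and 0 SYN marginal zone gate cells, against 5 and 4 Fcer2a cells. The thinned Cd180 shares kept the order of the CPM, and those of Tlr7 and Tlr3 rest on at most 5 marginal zone gate cells.

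**Figure D3:**
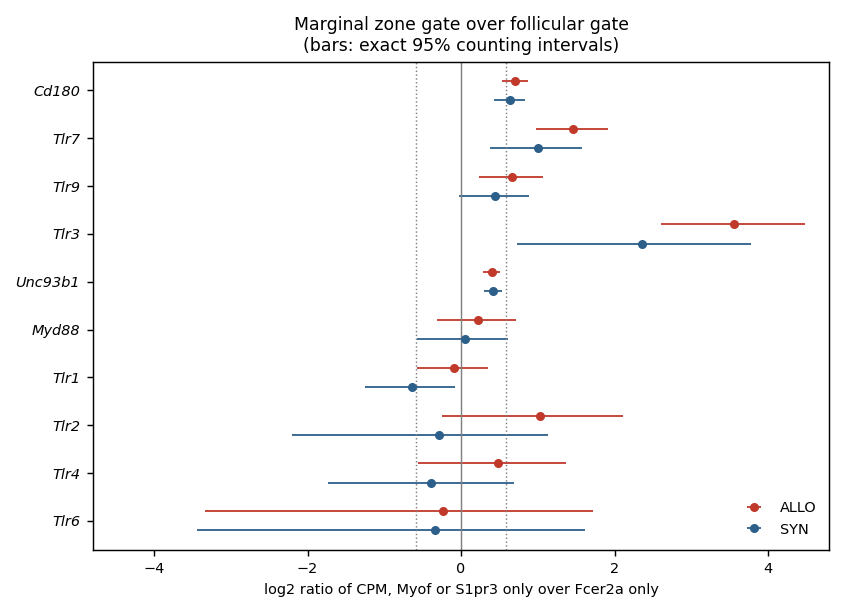
Log2 ratio of CPM in marginal zone gate cells (Myof or S1pr3) over Fcer2a cells (x axis), with ALLO above SYN for each gene, bars for exact 95% counting intervals and dotted lines at 1.5-fold either way. Tlr3, Tlr7 and Cd180 lie to the right of the 1.5-fold line in both libraries.

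Other genes of the pathway were compared over the same gates. Of 57 listed pathway genes with enough UMIs, 6 were higher and 4 lower in marginal zone gate cells in both libraries. Of all 10732 genes, 5.71% were higher and 6.22% lower. Ly96, the co-receptor that binds lipopolysaccharide with Tlr4, had 20.2 CPM in ALLO marginal zone gate cells against 7.80 CPM in ALLO Fcer2a cells, and 24.2 CPM against 6.70 CPM in SYN. Its ratios were 2.59 and 3.61. Cd36, a scavenger receptor that hands ligands to Tlr2, was 4.42 and 4.00 times as high in ALLO and SYN. The endosomal proteases Lgmn and Ctsb, which cleave receptors in endosomes, were 1.83 and 1.76 times as high in ALLO and 2.09 and 2.50 times as high in SYN. The kinase Ikbke was 1.83 and 2.80 times as high and the costimulatory target Cd86 1.82 and 1.79 times. Lower ones were the inhibitor Nfkbia at 0.542 in ALLO and 0.596 in SYN, the interferon regulatory factor Irf7 at 0.664 and 0.506, and the kinase-binding Tab3 at 0.530 and 0.216. The chemokine Ccl3 was the fourth, on 3 ALLO and 2 SYN UMIs. In ALLO the intervals of Ikbke (0.805 to 3.67), Irf7 (0.368 to 1.11) and Tab3 (0.192 to 1.18) included 1. Those of Ccl3 included 1 in both libraries. Each of these genes had at most 15 UMIs in the marginal zone gate of either library.

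Between ALLO and SYN marginal zone gate cells, 2 of the 7 members with enough UMIs were apart, where 16.2% of 8073 genes were, and both were higher in ALLO. The ratio of Tlr3, on 19 ALLO and 6 SYN UMIs, was 2.87 (1.10 to 8.79). That of Tlr7, on 47 ALLO and 28 SYN UMIs, was 1.52 (0.934 to 2.53). Cd180 had 267 and 225 CPM, a ratio of 1.19 (0.998 to 1.42), and Tlr9 had 48.2 and 43.5 CPM, a ratio of 1.11 (0.734 to 1.68). Tlr3 and Tlr7 rested on few molecules, and of these 4 genes the interval of Tlr3 alone did not include 1. The plasma cell gene Jchain stood at 7.01 CPM in the ALLO and 732 CPM in the SYN marginal zone gate, and the part of such cells in these ratios was not tested. Of 49 other pathway genes, 4 were higher (5430427O19Rik, Tollip, Socs1 and Irf7, with ratios of 1.51 to 1.74) and 3 lower in ALLO. The lower ones were the chaperone Hsp90b1, at 309 CPM in ALLO and 716 CPM in SYN, Ctsb, at 113 and 179 CPM, and Traf6, at a ratio of 0.562.

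Cells with Cd93 only were few. Sox4 had 86.8 CPM in ALLO and 45.9 CPM in SYN, against 11.1 and 15.4 CPM in Fcer2a cells, but Rag1 and Vpreb1 had 0 UMIs in both libraries and Jchain reached 8702 and 11912 CPM. In the 41 of 43 ALLO and 40 of 42 SYN cells with under 5 Jchain UMIs, the plasma cell markers summed to 495 and 518 CPM, against 9842 and 12779 CPM in all cells with Cd93 only, and the transitional B cell markers to 1638 and 1618 CPM, against 1432 and 1275 CPM. Of the members only Unc93b1 and Cd180 had enough UMIs, and 0 of these 2 were apart, where 29.2% of 3280 genes were. Unc93b1 had 446 CPM in ALLO and 566 CPM in SYN, a ratio of 0.788 (0.601 to 1.03), and Cd180 had 174 and 163 CPM. In the cells with under 5 Jchain UMIs, the ratio of Unc93b1 was 0.715 (0.540 to 0.946), and Cd180 had 204 and 207 CPM. Tlr9 had 8 and 2 UMIs, and Tlr3 had 0 in both. Of 27 other pathway genes, 2 were higher in ALLO (Ap3b1 and Nfkbiz, ratios 1.93 and 1.77) and 4 lower (Irf5, Irak2, Ap3d1 and Tab2, ratios 0.544 to 0.663).

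B cells were also split by genes that mark a response, with limits chosen after values had been seen. B cells with at least 2 UMIs of the interferon-induced genes Ifit1, Ifit3 and Rsad2 numbered 52 in ALLO and 27 in SYN. Their Tlr7 was 85.6 CPM in ALLO (20 UMIs) against 17.2 CPM in the other ALLO B cells, and 72.8 CPM in SYN (7 UMIs) against 14.2 CPM in the other SYN B cells. The ratios were 4.98 (3.01 to 7.79) and 5.14 (2.05 to 10.7). Tlr7 was the 1 member of 10 that was at least 1.5-fold higher in both libraries, where 4.28% of genes were. Irf7, itself an interferon-induced factor downstream of Tlr7 and Tlr9, was 18.1 times as high in ALLO (14.0 to 23.1) and 13.7 times in SYN (8.50 to 21.1). Unc93b1 was 1.39 (1.18 to 1.63) and 1.32 (1.02 to 1.67) times as high, and Cd180 was at 0.968 and 0.685. Of 58 other pathway genes, 2 were higher in both libraries (Irf7 and Ly96, the second with 4 and 2 UMIs) and 1 was lower (the kinase Irak1, with 7 and 3 UMIs), where 3.01% of genes were lower. Markers of other cells moved with this split. The 4 red cell genes summed to 1476 CPM in ALLO and 4772 CPM in SYN interferon-high B cells, against 6.87 and 4.60 CPM in the other B cells. The 6 marginal zone markers summed to 1899 and 1424 CPM, against 1033 and 991 CPM, and the 6 plasmacytoid dendritic markers, of which 2 were detected, to 436 and 406 CPM, against 172 and 171 CPM. Neutrophil genes summed to 8.55 CPM in ALLO and 613 CPM in SYN, against 4.32 and 477 CPM. The part of such cells in the Tlr7 ratio was not tested.

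B cells with Myc and Il4i1, genes induced in activated B cells, numbered 460 in ALLO and 325 in SYN. Cd180 in them was 1.31 times (1.19 to 1.43) as high as in the other ALLO B cells and 1.23 times (1.10 to 1.39) as high as in the other SYN B cells. Of the 10 members 0 were 1.5-fold higher in both libraries, where 2.39% of genes were, and Tlr6 was lower, where 2.94% of genes were, on 2 UMIs in each. The co-receptor Cd36, the negative regulator Tnfaip3 and the NF-kappa B inhibitor family member Nfkbid were the 3 of 58 pathway genes that were higher in both, with Nfkbid 1.90 and 3.11 times as high.

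B cells with at least 20 UMIs of Jchain, a gene of antibody-secreting cells, numbered 19 in ALLO and 20 in SYN. Cd180 and Unc93b1 had lower CPM in them than in the other B cells. Cd180 had 42.6 CPM against 173 CPM in the other ALLO B cells and 21.2 CPM against 153 CPM in the other SYN B cells, ratios of 0.246 (0.112 to 0.467) and 0.138. Unc93b1 had 227 against 490 CPM in ALLO and 275 against 533 CPM in SYN, log2 ratios of -1.11 and -0.95. The median log2 ratio of all genes with enough UMIs was -1.61 in ALLO and -0.95 in SYN. Unc93b1 thus lay above the median gene in ALLO and level with it in SYN. Cd180, with log2 ratios of -2.03 and -2.85, lay below the median gene in both. Tlr9 had 0 UMIs in both libraries, which against a floor of 3 UMIs per library is at least 2.26-fold lower in ALLO and at least 2.58-fold lower in SYN. Of the 10 members, 5 (Tlr1, Tlr9, Unc93b1, Myd88 and Cd180) were at least 1.5-fold lower in both libraries, where 31.5% of genes were. The ratios of Myd88 rested on 2 and 3 UMIs, with intervals that included 1. Tlr2, Tlr3, Tlr4 and Tlr6 had 0 UMIs in both libraries, too few for a call. Tlr7 was not lower, with 4 UMIs in each library and ratios of 1.06 (0.288 to 2.74) and 1.18 (0.319 to 3.05).

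**Figure D4:**
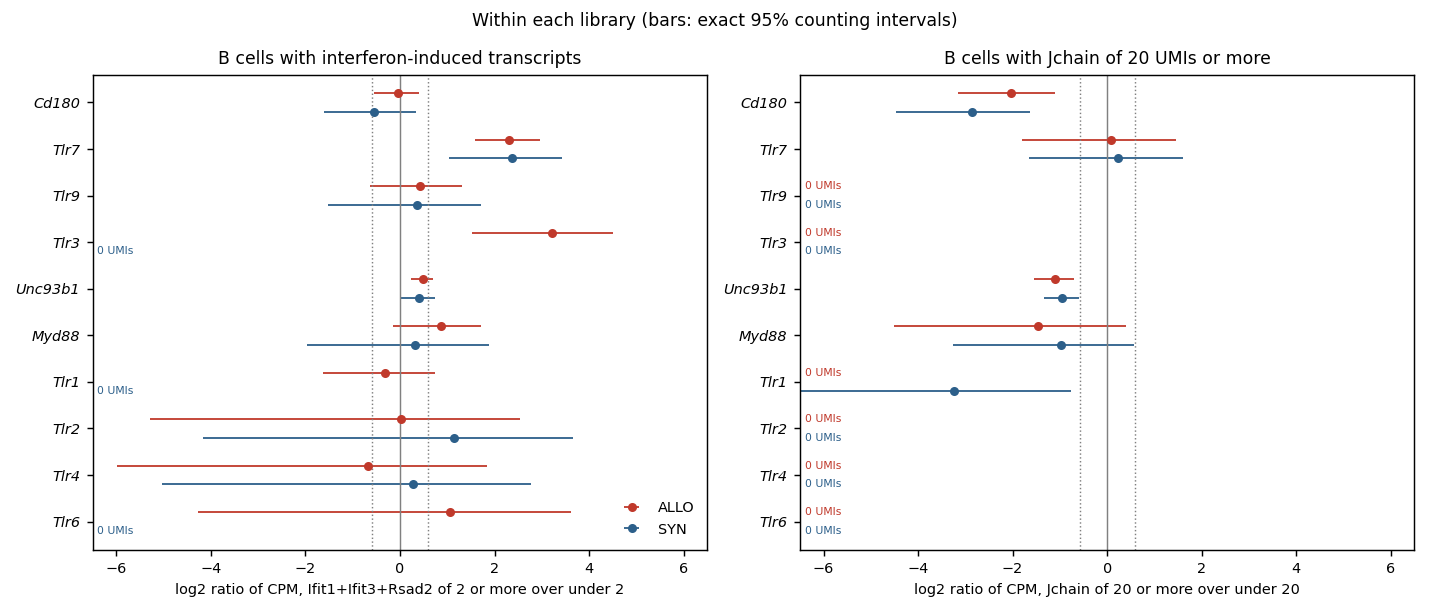
Log2 ratio of CPM (x axis) of each gene in interferon-high B cells (left) and in Jchain-high B cells (right) over the other B cells of the same library, with ALLO above SYN, bars for exact 95% counting intervals, dotted lines at 1.5-fold and genes without a UMI marked. Tlr7 had ratios of 4.98 and 5.14 in interferon-high cells of ALLO and SYN. Cd180 and Unc93b1 lay below 1 in Jchain-high cells of both, as did the median of all genes.

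In T cells, 9 of the 10 members were at least 1.5-fold lower than in B cells of the same library in both libraries, where 17.7% of 12130 genes were. Cd180 was at 0.0168 and 0.0197 of its B cell level in ALLO and SYN, Unc93b1 at 0.0358 and 0.0302, and Tlr9 at 0.0197 and 0.0337. The B cell markers Cd22 and Ms4a1 were at 0.0309 and 0.00951 in ALLO T cells and at 0.0286 and 0.0130 in SYN T cells, values of like size. Tlr1 was at 0.383 and 0.337, Tlr2 at 0.329 and 0.612, Tlr6 at 0.548 and 0.426 and Tlr7 at 0.197 (0.130 to 0.289) and 0.159 (0.0994 to 0.243), all above those markers.

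Myd88, which also serves receptors of the interleukin family on T cells, was the member that was higher in T cells. It had 34.8 CPM in ALLO T cells (277 UMIs) against 26.0 CPM in ALLO B cells, and 40.0 CPM in SYN T cells (402 UMIs) against 25.0 CPM in SYN B cells. The ratios were 1.33 (1.16 to 1.54) and 1.60 (1.40 to 1.82), so that it reached 1.5-fold in SYN alone. In cells thinned to 1000 UMIs, 3.70% of T cells in each library had a Myd88 UMI, against 2.48% of ALLO and 2.34% of SYN B cells. Of 58 other pathway genes, 9 were higher and 24 lower in T than in B cells in both libraries, where 15% of all genes were higher and 17.7% lower. Between CD8 and CD4 T cells, 0 of the 3 members with enough UMIs were apart in both libraries, where 9.66% of genes were. Tlr1 was at 0.676 and 0.521 of the CD4 level in ALLO and SYN CD8 cells.

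The share of cells with a UMI followed the same order. Without thinning, a Cd180 UMI was found in 40.3% of ALLO and 35.3% of SYN B cells, and with cells thinned to 1000 UMIs in 14.8% (13.9% to 15.6%, Clopper-Pearson) and 13.7% (12.9% to 14.5%). In T cells, which should lack Cd180, the thinned shares were 0.342% and 0.624%, at median depths of 4220 and 4049 UMIs against 3184 and 3005 in B cells. Thinned Tlr7 was found in 1.43% of ALLO B cells (1.16% to 1.73%) and 1.10% of SYN B cells (0.868% to 1.38%), against 0.455% and 0.291% of T cells, and unthinned in 5.69% and 4.62% of B cells. Thinned Tlr9 was found in 3.13% and 3.22% of B cells, against 0.0569% and 0.250% of T cells, and unthinned in 10.6% and 9.79% of B cells. All 3 stood above the T cell shares in both libraries. Tlr7 and Tlr9 met in 4 of 6941 thinned ALLO B cells and in 2 of 6802 thinned SYN B cells. About 3.1 and 2.4 such cells would be expected if the 2 genes were unrelated.

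Between ALLO and SYN T cells, 2 of the 6 members with enough UMIs were apart, where 9.73% of 11391 genes were. Tlr2 had 1.38 CPM in ALLO (11 UMIs) and 2.88 CPM in SYN (29 UMIs), a ratio of 0.478 (0.216 to 0.986). Tlr7 had 3.51 CPM in ALLO (28 UMIs) and 2.29 CPM in SYN (23 UMIs), a ratio of 1.54 (0.853 to 2.79), an interval that included 1. Myd88 had 34.8 and 40.0 CPM, a ratio of 0.869 (0.743 to 1.01). Of 59 other pathway genes, 3 were higher in ALLO and 5 lower. The chemokines Cxcl10 (7.90 CPM in ALLO, 1.69 CPM in SYN), Ccl3 (12.0 and 5.77 CPM) and Ccl4 (32.0 and 19.5 CPM) were the higher ones. The lower ones were led by Il1b (0.251 CPM in ALLO, 13.7 CPM in SYN), the protease Lgmn (4.01 and 9.45 CPM), the inhibitory adaptor Dok3 (2.01 and 4.78 CPM) and the kinase Lyn (9.54 and 14.3 CPM). Neutrophil transcripts in the T cell gate stood at 1341 CPM in ALLO and 573 CPM in SYN, and their part was not tested.

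The NK gate held 240 ALLO and 368 SYN cells, and 2 of its 6 members with enough UMIs were apart, where 14.7% of 8396 genes were. Tlr9 had 6.42 CPM in ALLO (6 UMIs) and 20.8 CPM in SYN (26 UMIs), a ratio of 0.309 (0.104 to 0.768), and Tlr1 had 5 ALLO and 17 SYN UMIs, with a ratio of 0.394 (0.114 to 1.11). The gate held B cell markers in both libraries, with Ms4a1 at 0.225 and 0.284 of its B cell level, and Jchain stood at 1979 CPM in ALLO against 11.2 CPM in SYN. In the 150 ALLO and 232 SYN NK cells with no Cd79a or Cd79b UMI, Ms4a1 was at 0.0102 and 0.00939 of its B cell level, and Tlr9 had 0 and 2 UMIs. Against a floor of 3 UMIs, Tlr9 in these ALLO cells was at least 5.21-fold lower than in ALLO B cells, and Cd180, with 0 UMIs in SYN, was at least 36.7-fold lower than in SYN B cells. Against B cells, 5 of the 10 members (Tlr1, Tlr7, Tlr9, Unc93b1 and Cd180) were lower in both libraries in these cells, where 11.7% of genes were. Unc93b1 in them was at 0.121 and 0.0910 of its B cell level and Myd88 at 1.33 and 2.20 times that level. Myd88 itself had 34.6 CPM in ALLO (17 UMIs) and 55.1 CPM in SYN (40 UMIs) of these cells. Of 51 other pathway genes in the whole gate, 3 were higher in ALLO (Ikbke, Irak3 and Cd86, ratios 1.58 to 2.23) and 5 lower (such as 5430427O19Rik at 0.412 and Ticam1 at 0.574).

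In the Csf1r and Lyz2 gate, Tlr2 was 5.82 times (1.56 to 15.3) as high as in B cells in ALLO and 5.98 times (2.99 to 10.9) in SYN, from 4 and 12 UMIs. Tlr7 was 3.09 times (1.40 to 5.92) and 3.26 times (1.97 to 5.12) as high, from 9 and 20 UMIs. These 2 of 10 members were at least 1.5-fold higher in both libraries, where 11.7% of 11395 genes were. Tlr1, Unc93b1 and Cd180 were lower in both, where 15.8% of genes were, with Cd180 at 0.390 and 0.387 of its B cell level. The Tlr1 ratio in ALLO rested on 2 UMIs, with an interval of 0.0400 to 1.20. The median log2 ratio of all genes against B cells was -0.80 in ALLO and -0.29 in SYN. In gate cells with under 10 S100a8 and S100a9 UMIs, Cd180 had 163 CPM in ALLO (11 UMIs) and 91.8 CPM in SYN (24 UMIs). B cells had 172 and 152 CPM.

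Between ALLO and SYN, 2 of the 4 members with enough UMIs in that gate were apart, where 45.3% of 4032 genes were, and 37.9% of genes were lower in ALLO. Myd88 had 24.4 CPM in ALLO (4 UMIs) and 113 CPM in SYN (48 UMIs), a ratio of 0.217 (0.0569 to 0.593). Unc93b1 had 183 CPM in ALLO (30 UMIs) and 289 CPM in SYN (123 UMIs), a ratio of 0.635 (0.411 to 0.954). Tlr7 had 55.0 and 46.9 CPM and Cd180 67.2 and 58.6 CPM, with intervals that included 1. In the cells with under 10 UMIs of S100a8 and S100a9 together, 19 in ALLO and 49 in SYN, Unc93b1 had 355 and 348 CPM, a ratio of 1.02 (0.622 to 1.61). In the cells with 10 or more, it had 62.5 CPM in ALLO (6 UMIs) and 194 CPM in SYN (32 UMIs), a ratio of 0.322 (0.110 to 0.780). In the cells with under 10, Tlr7 had 8 UMIs in ALLO and 18 in SYN, and Cd180 had 11 and 24. In the cells with 10 or more, Tlr7 had 1 UMI in ALLO and 2 in SYN, and Cd180 had 0 and 1. Myd88 had a ratio of 0.287 (0.0330 to 1.14) in the cells with under 10, on 2 and 27 UMIs, and of 0.163 (0.0186 to 0.669) in those with 10 or more, on 2 and 21 UMIs. Of 37 other pathway genes 3 were higher in ALLO (Cd36, Tnf and Pik3ap1, ratios 1.52 to 1.68) and 20 were lower, led by Il1b at 91.7 CPM in ALLO and 1210 CPM in SYN, Ptgs2 at 0 and 25 UMIs, Ly86 at 97.8 and 274 CPM and the protease Ctss at 354 and 741 CPM.

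Cells with at least 2 UMIs of Siglech, a mark of plasmacytoid dendritic cells, numbered 1 in ALLO and 9 in SYN. Unc93b1 in them had 1200 CPM in ALLO (10 UMIs) and 907 CPM in SYN (56 UMIs), 2.46 and 1.71 times the B cell level. Tlr7 had 0 and 5 UMIs and Tlr9 2 and 1, too few for a level.

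The median log2 ratio of the rest of the pathway in B cells was level with that of all genes. Of 73 listed genes, 59 had enough UMIs in all B cells, and 1 was higher and 1 lower in ALLO, where 7.88% of 12442 genes were apart. The chemokine Ccl3 had 6.80 CPM in ALLO (175 UMIs) and 2.77 CPM in SYN (64 UMIs), a ratio of 2.46 (1.84 to 3.33). The cytokine Il1b had 0.194 CPM in ALLO (5 UMIs) and 5.88 CPM in SYN (136 UMIs), a ratio of 0.0331 (0.0106 to 0.0791), beside S100a8 at 1.59 CPM in ALLO and 221 CPM in SYN. The other 57 lay within 1.5-fold, and the median log2 ratio was -0.07, against -0.07 for all genes. In Fcer2a cells Il1b alone was apart, at 0.236 and 6.37 CPM, where 7.11% of all genes were apart. Ccl3 lay within 1.5-fold there, with a ratio of 1.38.

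**Figure D5:**
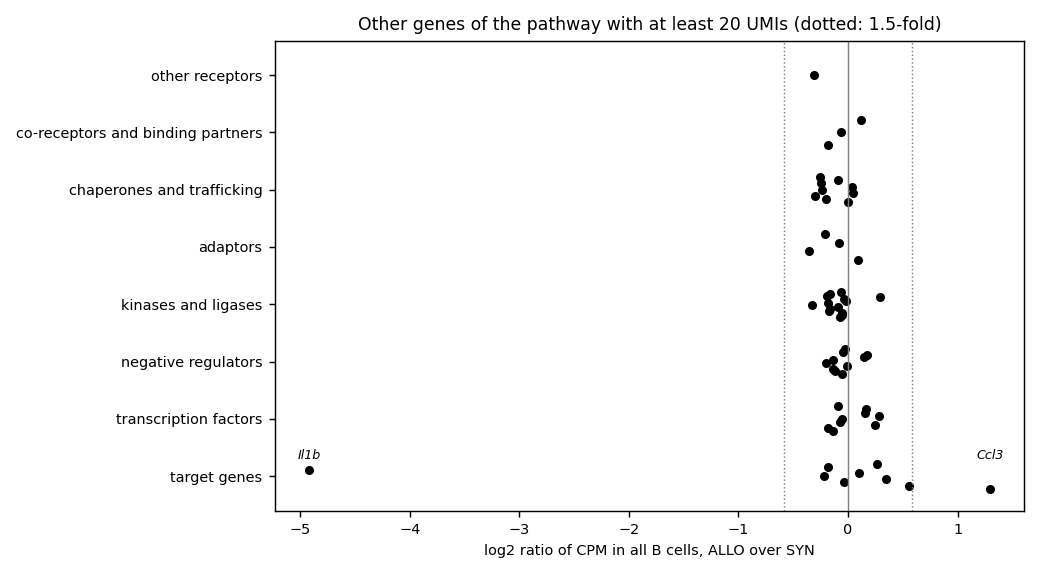
Log2 ratio of CPM in ALLO over SYN in all B cells (x axis) of the pathway genes with at least 20 UMIs, 1 row per role and 1 point per gene, with dotted lines at 1.5-fold either way. Ccl3, with a ratio of 2.46, and Il1b, with a ratio of 0.0331, are the points outside the lines.

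Over 8 gates in 2 libraries (16 points), the genes whose log2(CPM + 1) followed Cd180 most closely among 9817 candidates were Unc93b1 (Pearson r of 0.992), Wdfy4 (0.988) and Btk (0.988). Those nearest to Tlr9 were Acox3 (0.977), Wdfy4 (0.967) and Ube2w (0.963), and those nearest to Tlr7 were Pmaip1 (0.944), Cep85l (0.932) and Ldlrad3 (0.925). The points share libraries, and B, T and NK gates differ in most genes, so these values describe likeness of pattern over the gates.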

How the data were processed

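Single-cell RNA sequencing of spleen cells gave 1 ALLO and 1 SYN library, grouped by the sample titles. The authors deposited raw UMI counts for each gene and barcode. Per the submitters' processing notes, and for Cell Ranger also the file headers, these came from Cell Ranger 6.0.2 on mm10, with FastQC named as well. The annotation release and the aligner's options were not given in the sources used here. No deposited barcode has under 500 UMIs.

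Barcodes with at least 1000 UMIs, at least 200 genes and at most 10% mitochondrial UMIs were kept, which left 38340720 ALLO and 40739421 SYN UMIs. The 1000-UMI minimum removed 11.3% of ALLO and 36.6% of SYN barcodes. Cells in more than 1 gate could count in each: 57 ALLO and 108 SYN cells met both the B and the NK gate. Doublets were limited by the exclusions in the gates. Scrublet's automatic threshold (scanpy 1.11.5) marked 0 ALLO and 2 SYN barcodes and did not work, so removal of the highest 5% of scores (522 ALLO and 625 SYN kept barcodes) was tried as an alternative.

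UMIs were summed per gate and library. Sums have exact Poisson intervals, ratios exact conditional intervals and shares Clopper-Pearson intervals, at 95% (python 3.11.15, scipy 1.17.1, numpy 2.4.6, pandas 2.3.3, matplotlib 3.10.9), and UMIs are not free of amplification error. The code was tested on simulated data. With 1 library per group no test was run, and a gene at 0 in a gate was set at 3 counts in folds and in counts of lower or higher genes between gates. All 10 members are named; other pathway genes are named where at least 1.5-fold apart with 20 UMIs, at most 8 per direction in all B cells and 4 in other gates, ranked by the interval bound nearest to 1. Genes named within the B cell subsets, and in the interferon, Jchain, Myc and Il4i1, S100, Siglech and Cd79-free NK gates, were chosen after values were seen. The members and lists were chosen with earlier results of these data known.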

Additional observations from a re-analysis of the deposited data

Results flagged for a closer look

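The values above use barcodes with at least 1000 UMIs that fall in a gate, and differences between the libraries were also present outside them. In B cells under 1000 UMIs, 330 in ALLO and 2638 in SYN, Cd180 had 299 CPM in ALLO and 117 CPM in SYN, a ratio of 2.56 (95% counting interval 1.95 to 3.32). Tlr7 in the same cells had 42.2 CPM in ALLO (11 UMIs) and 14.4 CPM in SYN (27 UMIs), a ratio of 2.92 (1.31 to 6.09). Unc93b1 had 537 CPM in ALLO and 401 CPM in SYN, a ratio of 1.34 (1.11 to 1.60), on the other side of 1 from its value in deeper B cells. Tlr1 (1.56), Tlr2 (1.02), Tlr4 (2.21), Tlr9 (1.64) and Myd88 (1.13) also had ratios above 1 there, with intervals that included 1. Tlr3 and Tlr6 had 0 UMIs in ALLO. The share of all genes in these shallow barcodes is not given here, so the ratios cannot be set against a background. In the kept cells that met no gate, 905 in ALLO and 1669 in SYN, Cd180 had 98.5 CPM in ALLO and 78.5 CPM in SYN, a ratio of 1.25 (1.10 to 1.43).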

How the results depend on the processing

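Of the alternatives, 13 were planned and 7 were chosen after seeing the data. Without a minimum of UMIs, 7 members were apart between ALLO and SYN in Cd93 cells, 4 in T cells and 6 in the Csf1r and Lyz2 gate, and 14 pathway genes were apart in all B cells. With cells thinned to 1000 UMIs, 1 member was apart in all B cells and 1 in Fcer2a cells (Tlr6 at 0.549 and 0.472), 1 in Cd93 cells (Unc93b1 at 0.599), 1 in the marginal zone gate, 1 in T cells, 0 in NK cells and 0 in the Csf1r and Lyz2 gate, and 1 was highest in that gate. A minimum of 50 UMIs left 1 in the marginal zone gate, 1 in T cells and 0 in NK cells, and a fold of 2 left 1 in the marginal zone gate, 1 in T cells and 1 in the Csf1r and Lyz2 gate. Removing barcodes over 10000 UMIs left 1 each in the marginal zone gate, T cells and NK cells. At least 2000 UMIs per barcode gave 1 in T cells and 1 in NK cells. Stricter gates, and NK cells without Cd79a or Cd79b, each gave 1 in NK cells, which was Myd88 (ratios of 0.475 and 0.628) and neither Tlr9 nor Tlr1. Removing the highest 5% of Scrublet scores gave 1 in all B cells (Tlr3 at 1.51). Taking means over cells gave 5 members higher in the marginal zone gate than in Fcer2a cells (adding Tlr2 and Tlr6) and 4 highest in the Csf1r and Lyz2 gate. The causes were not tested. The shares of all genes under these alternatives are not given here, so these counts cannot be set against a background. With the main settings, 29.2% of genes were apart between ALLO and SYN in Cd93 cells and 9.73% in T cells. In NK cells 14.7% of genes were apart, and in the Csf1r and Lyz2 gate 45.3%. Unc93b1 in the Csf1r and Lyz2 gate had a ratio of 1.02 in cells with S100a8 and S100a9 under 10 UMIs, against 0.635 in the whole gate. Of the counts, 110 values stayed within 1.5 times and 28 moved, and of the single ratios 480 stayed, 21 moved and this 1 was counted as turned. Other ratios also crossed 1 under some alternatives without being counted as turned. Examples are Cd180 in the marginal zone gate (0.914 to 1.23), in T cells (0.547 to 1.39) and in NK cells (0.647 to 1.53).

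Over the alternatives the ratio of Cd180 in all B cells ranged from 1.11 to 1.19, Tlr7 from 1.21 to 1.31 and Unc93b1 from 0.896 to 0.964, while Tlr3 in the marginal zone gate ranged from 1.83 to 3.95, Tlr7 there from 1.18 to 1.58, Tlr9 there from 0.959 to 2.68, Myd88 there from 1.11 to 2.13 and Tlr2 in T cells from 0.105 to 0.508. No paired analysis was possible because each group has 1 library, so the groups share only replicate 1, and no replicate could be left out. Depth limits Tlr3, Tlr6 and Tlr2, and every member in the Cd93, NK and Csf1r and Lyz2 gates.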
